A study of Macaca mulatta with 22 samples.

Results

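The comparison described here sets ovulatory follicles of rhesus macaques (Macaca mulatta) that were still unruptured 36 h after an ovulatory hormone dose against follicles taken 24 h after it. The members are the 8 arrays, of 22 in the series, whose titles name these stages, 4 unruptured 36 h follicles and 4 follicles of 24 h, each array holding RNA of 1 dominant follicle of a female in controlled ovulation. All 8 come under the same regimen. Once serum estradiol reached 100 to 120 pg/ml, the females received a GnRH antagonist together with 30 IU each of recombinant FSH and LH, both human. Then came 1000 IU of recombinant human chorionic gonadotropin (hCG), which acts on the LH receptor. The other arrays come from follicles of 0 h, taken without hCG, follicles of 12 h and ruptured follicles of 36 h, and enter here for the shared estimate of the spread and as a scale. Titles and source names call all samples follicles, while most descriptions speak of the corpus luteum, the gland that the ruptured follicle becomes. The labels do not say, array by array, that each follicle had its own animal, and a p-value here covers no more than the scatter of these follicles.

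A follicle that has received the LH-like signal stops making estrogen and turns its granulosa and theca cells towards progesterone. The oocyte resumes meiosis, the cumulus cells around it swell in a hyaluronan matrix, and proteases and prostaglandins prepare the wall for rupture. Blood vessels then grow from the theca into the former granulosa layer. Follicles of 24 h and unruptured follicles of 36 h both stand between the signal and rupture, so the comparison addresses the last interval before ovulation. Whether each unruptured follicle would have ruptured cannot be told from the arrays.

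Few differences between the stages passed the test. All values are log2 intensities, on which a difference of 1 is a 2-fold difference, and differences are unruptured 36 h minus 24 h with their standard error (SE) from limma's moderated fit. Of 52766 probe sets tested, 2 were lower in unruptured 36 h follicles at a Benjamini-Hochberg adjusted p under 0.05 (0.00379%) and 0 were higher (0%). Both were probe sets of SERPINA3. By the unadjusted p under 0.05, 3298 probe sets passed (6.25%). In the same fit 3628 probe sets were called between 24 h and 12 h (6.88%) and 5181 between ruptured and unruptured 36 h follicles (9.82%), each with 4 arrays a group.

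The differences were small as well as uncalled. Among the 26383 brighter probe sets, those above the median of all mean intensities, the median size of the difference was 0.15 log2 units for unruptured 36 h against 24 h. It was 0.28 for 24 h against 12 h and 0.31 for ruptured against unruptured follicles, as the cumulative plot of these sizes shows. Differences under 1.5-fold were found for 95.2% of brighter probe sets, and 0.758% differed 2-fold or more. Taking 1 probe set a gene, 21 of 9719 brighter genes were at least 2-fold higher and 40 at least 2-fold lower in unruptured follicles. The comparisons share arrays with each other, and the difference between these sizes was not tested.

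**Figure D1:**
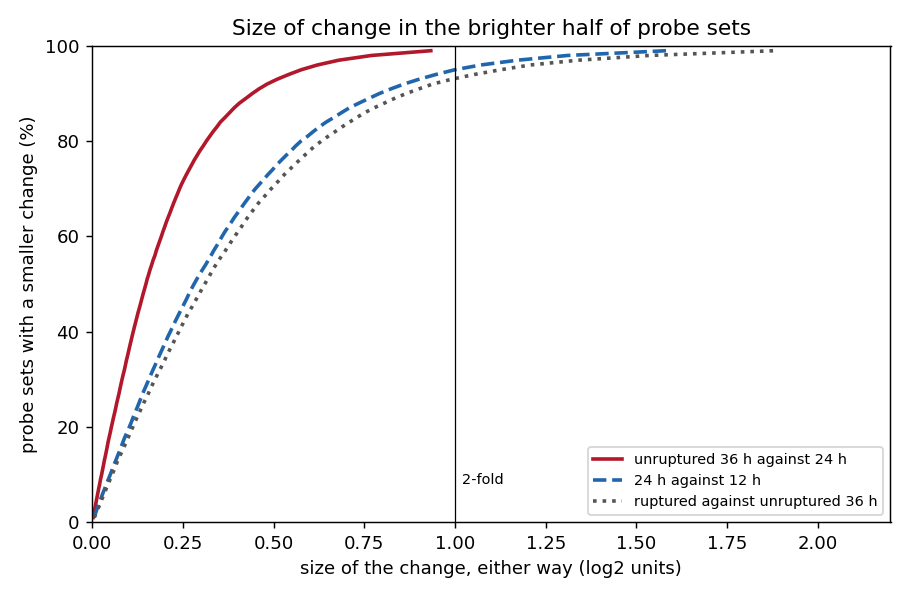
Cumulative percentage of the brighter probe sets (y axis) whose log2 change, either way, is smaller than the value on the x axis, for unruptured 36 h against 24 h, 24 h against 12 h and ruptured against unruptured 36 h follicles. The curve of unruptured 36 h against 24 h climbs soonest, with a median of 0.15 against 0.28 and 0.31.

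A missed threshold does not show that a gene was equal at both stages, so the width of the intervals sets what can be said. The 95% confidence interval reached a median of 0.42 log2 units to either side among brighter probe sets, and it lay wholly within a 2-fold difference either way for 85.1% of them. Over all probe sets it reached 0.74 to either side and lay within 2-fold for 48.2%, the dimmer ones being measured more loosely. Counted by gene, 9120 of 14132 genes (64.5%) had such an interval. A 2-fold difference thus lay outside the interval for most brightly measured probe sets and inside it for most dim ones.

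The follicles did not sort fully by stage. Arrays of unruptured 36 h follicles correlated with each other at a mean r of 0.902 (0.892 to 0.910), those of 24 h follicles at 0.903 (0.899 to 0.908), and arrays of different stages at 0.902 (0.890 to 0.918), over probe sets of single arrays. The first principal component of the 8 arrays held 23.1% of their variance. On it, the unruptured follicles lay between −15.2 and 44.4 and the 24 h follicles between −39.7 and 2.50, so the stages overlapped. The median SD over arrays was 0.230 in unruptured and 0.223 in 24 h follicles among brighter probe sets. The difference between 3′ and 5′ control probe sets, an index of RNA quality, was 0.323 ± 0.039 in unruptured and 0.263 ± 0.036 in 24 h follicles (SD, n = 4 each), and its part in the differences below was tested only as a covariate for the calls.

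SERPINA3, a secreted inhibitor of serine proteases such as cathepsin G and chymotrypsin, was the only called gene and was lower in unruptured follicles. Its brightest probe set read 9.23, 7.82, 8.19 and 9.15 in unruptured 36 h follicles, against 10.82, 11.10, 11.17 and 11.96 in 24 h follicles. Every unruptured follicle lay below every 24 h follicle, with 1.59 log2 units between the nearest pair. It fell by 2.67 ± 0.36 log2 units (SE), a 6.35-fold lower intensity, with an adjusted p of 0.0255 (limma) and a 95% interval from −3.41 to −1.92. A second probe set gave −2.64 ± 0.38 (adjusted p = 0.042), while the other 3 probe sets annotated to the gene differed by −0.10, −0.03 and 0.07, as the plot of SERPINA3 probe sets shows. These 3 read nearly alike at every stage of the series, between 6.12 and 8.31 on average.

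**Figure D2:**
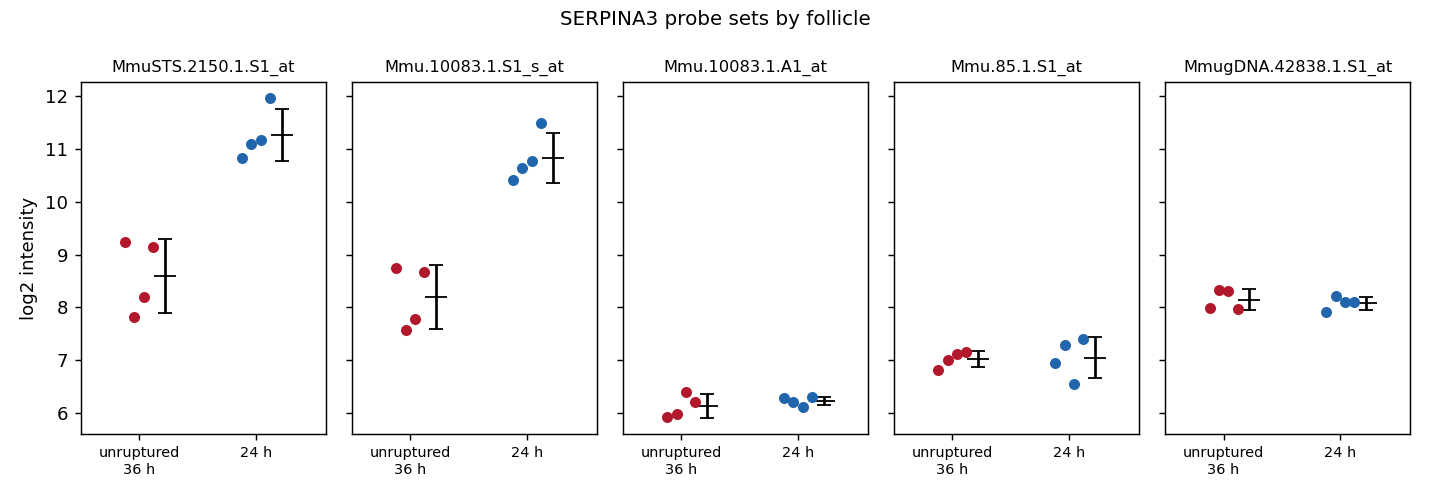
Log2 intensity (y axis) of the 5 probe sets annotated to SERPINA3, 1 panel each, in 4 unruptured 36 h follicles (red, left) and 4 follicles of 24 h (blue, right), with mean and SD as black bars. The first 2 panels show the groups apart by −2.67 and −2.64, and the others show differences of −0.10, −0.03 and 0.07.

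Over the series the brightest SERPINA3 probe set averaged 5.38 ± 0.46 in 0 h follicles (SD, n = 6). The means of later stages were 11.86 ± 0.45 for 12 h, 11.26 ± 0.49 for 24 h, 8.60 ± 0.70 for unruptured 36 h and 12.01 ± 0.46 for ruptured 36 h follicles (SD, n = 4 each). The unruptured mean was thus the lowest of the stages after hCG and still far above 0 h. The difference was −2.41 to −2.88 over both probe sets and all alternatives tried, but its call was not firm. It was lost for both probe sets when the fit held only the 8 arrays (adjusted p = 0.488 and 0.423), when the RNA index was a covariate (0.146 and 0.249), and without 24 h replicate 2 (0.0533 and 0.101), 3 (0.122 and 0.195) or 4 (0.181 and 0.214) or unruptured replicate 3 (0.0696 and 0.0961). Without 24 h replicate 1 or unruptured replicate 2 or 4, only the brightest probe set passed, with adjusted p of 0.0492, 0.0499 and 0.0323.

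Genes of the known ovulatory programme were read whatever the test showed, and SERPINA3 was the only one of them called. STAR, which carries cholesterol into mitochondria for steroid synthesis, read 12.96, 13.01, 13.28 and 12.93 in unruptured 36 h follicles, against 13.15, 13.10, 13.24 and 13.24 in 24 h follicles. It was bright and nearly level in both, and its difference of −0.13 ± 0.15 had an interval from −0.45 to 0.18. HSD3B2, which turns pregnenolone into progesterone, read 7.99, 9.13, 8.47 and 8.25 in unruptured follicles, against 8.52, 9.93, 10.30 and 10.57 at 24 h. Only the lowest 24 h follicle reached into the unruptured range, and the difference of −1.37 ± 0.42 did not pass (adjusted p = 0.629). CYP11A1, LHCGR, FSHR, PTGS2 and VEGFA had no probe set with a single matching symbol and were not analysed here.

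PTX3, a pentraxin that cross-links the cumulus matrix, read 6.67, 7.53, 7.10 and 6.95 in unruptured follicles, against 7.46, 9.01, 7.91 and 9.35 at 24 h, a difference of −1.37 ± 0.43 (adjusted p = 0.656) with a small overlap. In HSD3B2 and PTX3, too, the unruptured mean was the lowest after hCG. At 0 h, HSD3B2 averaged 11.01, above its unruptured mean, whereas PTX3 averaged 5.60, below its unruptured mean. HSD3B2 averaged 11.92 in 12 h, 9.83 in 24 h, 8.46 in unruptured 36 h and 12.09 in ruptured 36 h follicles, and PTX3 averaged 10.33, 8.43, 7.06 and 10.70 in the same order. For both genes the steps on either side passed the test, lower at 24 h than at 12 h and higher in ruptured than in unruptured follicles, while the step between 24 h and unruptured 36 h did not. INHBA, the activin subunit, lay the other way and read 8.33, 8.63, 8.16 and 8.68 in unruptured follicles, against 7.43, 8.08, 7.72 and 7.72 at 24 h. Its groups did not overlap, and the difference of 0.71 ± 0.46 did not pass (adjusted p = 0.857). The dimmer probe set of INHBA gave −0.05 ± 0.57.

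Other genes of the programme were bounded tightly or hardly at all. TIMP1, an inhibitor of matrix metalloproteinases, differed by −0.11 (95% interval −0.38 to 0.17), RUNX1, a transcription factor of luteinizing cells, by −0.04 (−0.58 to 0.49), and ADAMTS1, the protease that cleaves versican, by 0.06 (−0.64 to 0.76). For these a 2-fold difference lies outside the interval. AREG, an EGF-like ligand, differed by 0.96 (−1.03 to 2.95) and HAS2, the hyaluronan synthase, by 0.65 (−0.89 to 2.19), so a 2-fold higher level lies inside both intervals and was not detectable with 4 follicles a stage. AREG read 6.08, 9.64, 8.83 and 7.81 in unruptured follicles, against 5.94, 8.54, 6.36 and 7.69 at 24 h. The spread within either stage exceeded the difference between them.

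A family here is a list of genes of a shared role or a set of genes of a shared symbol stem, and 156 of them (50 lists, 106 symbol families) had at least 5 measured genes. The median difference over all 14132 genes was 0.01, and 51.0% of genes lay above 0. Of the 156 family medians, 111 lay within 0.1 and 144 within 0.2 of that value, between −0.36 and 0.67 in all, and 154 families held no called gene. With 1 array left out, 148 of the 156 medians, many of them near 0, moved by over 1.5 times or changed sign. By the unadjusted p, 384 genes were higher (2.72%) and 525 lower (3.71%) in unruptured follicles, and for 336 genes (2.38%) every unruptured follicle was higher than every 24 h follicle and for 427 (3.02%) lower. Members' counts below are to be read against these shares. Since a follicle is a mix of cells, fewer cells of a type and less RNA per cell cannot be told apart in any of them.

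Many families of basic cell function lay near 0. The 40 nucleolar ribosome assembly factors had a median of 0.02, with 22 above 0, and the interval lay within 2-fold for all 40. The 25 histone acetyltransferases and deacetylases and the 16 measured genes of mTOR signalling and autophagy had medians of 0.00 and likewise no interval beyond 2-fold. Of 21 genes of hypoxia response, glucose uptake and glycolysis, 10 were above 0 and 20 had an interval within 2-fold, from LDHA, which makes lactate, at −0.39 ± 0.15 to HK2, the first kinase of glycolysis, at 0.61 ± 0.27. Large ribosomal subunit proteins (26 genes, median −0.02) and translation initiation factors (35 genes, median 0.03) were as close to 0. Progesterone synthesis (12 of 15 genes, median −0.06) and cholesterol synthesis (16 of 23 genes, median −0.03) had medians within 0.1 of 0 too, with 4 of 12 and 8 of 16 measured members above 0.

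Several large families of mitochondrial and protein machinery leaned slightly lower in unruptured follicles. These were picked for description after their values were seen, as were the members named, apart from the tRNA synthetases and theirs. Subunits and assembly factors of complex I, the NADH dehydrogenase of the respiratory chain, had a median of −0.14, with 6 of 32 above 0. By the unadjusted p 7 members were lower and 0 higher, 7 were lower in every unruptured follicle than in every 24 h follicle, and 31 of 32 intervals lay within 2-fold. NDUFS6 differed by −0.45 ± 0.13, NDUFA2 by −0.38 ± 0.14 and NDUFS8 by −0.37 ± 0.13, with no adjusted p under 0.05 in the family. Other probe sets of NDUFS6 gave only −0.09 ± 0.12 and −0.02 ± 0.12. Those of NDUFA2 gave −0.41 ± 0.14 and −0.66 ± 0.75, and that of NDUFS8 −0.30 ± 0.16.

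Mitochondrial ribosomal proteins, which translate the proteins coded in mitochondrial DNA, had a median of −0.14 as well, with 15 of 62 above 0, 4 lower and 0 higher by the unadjusted p. MRPL40 differed by −0.52 ± 0.13 and MRPL2 by −0.41 ± 0.15, while a dimmer probe set of MRPL2 gave −0.15 ± 0.22. Proteasome subunits, which degrade tagged proteins, had a median of −0.14 with 6 of 33 above 0 and 6 lower by the unadjusted p, among them PSMD1 (−0.58 ± 0.16) and PSMD8 (−0.45 ± 0.12).

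Aminoacyl tRNA synthetases, which load amino acids onto tRNA, had a median of −0.16, with 6 of 23 above 0, 4 lower by the unadjusted p, and all 23 intervals within 2-fold. VARS1, the valine enzyme, read 6.38, 6.72, 6.42 and 6.46 in unruptured follicles, against 6.81, 6.77, 7.15 and 7.19 at 24 h. Its groups did not overlap, and its difference of −0.49 ± 0.16 did not pass (adjusted p = 0.665). HARS1, the histidine enzyme, differed by −0.42 ± 0.13 and GARS1, the glycine enzyme, by −0.55 ± 0.21. Dimmer probe sets gave 0.04 ± 0.10 for HARS1 and −0.28 ± 0.28 for VARS1.

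These leanings were not carried evenly by the follicles. The level of a family in a follicle is the mean over members of the value centred over the 8 arrays. For complex I it was −0.11, −0.03, 0.05 and −0.17 in unruptured follicles, against 0.03, 0.03, 0.12 and 0.08 at 24 h. For the proteasome it was −0.06, −0.02, 0.05 and −0.25, against 0.05, −0.04, 0.17 and 0.10. Unruptured replicate 4 was the lowest and replicate 3 the highest of its stage in both, replicate 3 reached into the 24 h range, and the groups overlapped. The medians stayed below 0 with each array left out, from −0.17 to −0.07 for complex I, −0.18 to −0.09 for the proteasome, −0.16 to −0.09 for mitochondrial ribosomal proteins and −0.18 to −0.10 for tRNA synthetases. Over 10 classes of genes by brightness, the median difference lay between −0.02, in the brightest, and 0.05. The part of RNA quality in these leanings was not tested.

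**Figure D3:**
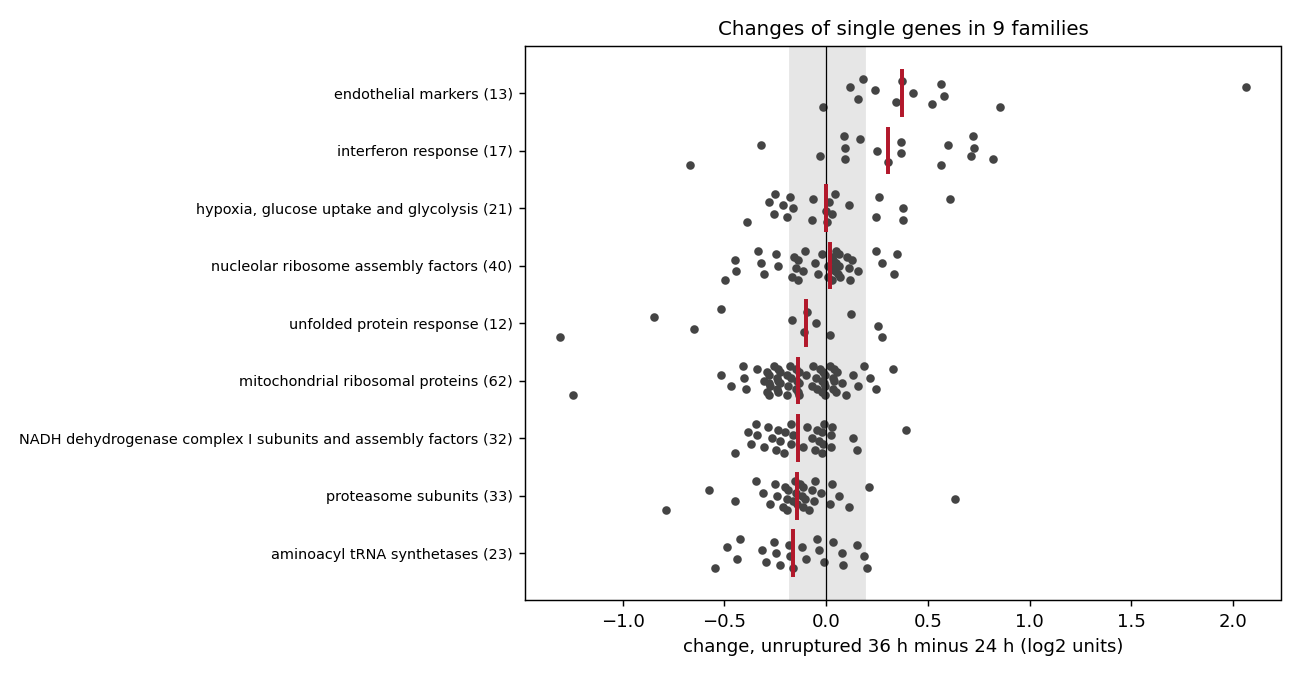
Log2 change, unruptured 36 h minus 24 h (x axis), of each measured gene (points) of 9 families (rows, number of genes in brackets), with the family median as a red bar and the middle 50% of all genes, from −0.18 to 0.19, as a grey band. Endothelial and interferon genes lie mostly right of 0, glycolysis and nucleolar genes on it, and the mitochondrial, proteasome and tRNA synthetase families mostly left of it by less than the band's width.

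Of the 156 families, 3 had levels that did not overlap between stages, 1 higher and 2 lower in unruptured follicles. Among single genes, the groups did not overlap for 2.38% (higher) and 3.02% (lower). Families apart between stages were thus no more frequent than genes apart, and no family difference was tested. Unfolded protein response genes, which fold and quality-check secreted proteins in the endoplasmic reticulum, were lower, at −0.08, −0.17, −0.04 and −0.21 in unruptured follicles against 0.10, 0.00, 0.16 and 0.25 at 24 h. The nearest follicles were unruptured replicate 3 (−0.04) and 24 h replicate 2 (0.00), and the separation was not checked with single members left out. The median was only −0.10, with 4 of 12 above 0, since a few members held the difference. SDF2L1, a partner of the chaperone BiP, read 6.54, 6.29, 6.93 and 6.35 in unruptured follicles, against 7.56, 7.68, 7.88 and 8.21 at 24 h, far apart but not called (−1.31 ± 0.30, adjusted p = 0.38). The disulfide isomerases PDIA4 (−0.85 ± 0.24) and PDIA6 (−0.65 ± 0.30) and the secreted factor MANF (−0.52 ± 0.20) were lower by the unadjusted p, while ATF4, the transcription factor of the stress response, was higher by it (0.25 ± 0.11). PDIA4, PDIA6, MANF and ATF4 were chosen after their values were seen.

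Protease inhibitors were the other lower list, with a median of −0.13 and 5 of 14 above 0. Their levels were 0.01, −0.36, −0.25 and −0.14 in unruptured follicles, against 0.27, 0.15, 0.01 and 0.30 at 24 h. Without SERPINA3 they were 0.06, −0.22, −0.13 and −0.09, against 0.23, 0.07, −0.08 and 0.17, and overlapped. The gap between the stages was only 0.0039 over all 14 members, and it closed when any 1 of 5 members was left out, SERPINA3, SERPINH1 and TIMP1 among them. SERPINH1, a collagen chaperone of the serpin family that inhibits no protease, read 10.91, 10.55, 10.85 and 10.55 in unruptured follicles, against 11.35, 11.08, 11.67 and 11.69 at 24 h, with a difference of −0.74 ± 0.15 (adjusted p = 0.311). Dimmer probe sets of SERPINH1 gave −0.78 ± 0.20 and only −0.17 ± 0.14. TIMP2, RECK, SERPINE2 and SERPINF1 lay between −0.16 and 0.10.

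Endothelial markers were the list whose level was higher in every unruptured follicle than in every 24 h follicle. Its median was 0.37, with 12 of 13 measured genes above 0, 3 higher and 0 lower by the unadjusted p, and 3 genes whose groups did not overlap. The levels were 0.49, −0.01, 0.24 and 0.27 in unruptured follicles, against −0.64, −0.09, −0.16 and −0.10 at 24 h. Unruptured replicate 1 and 24 h replicate 1 were the extremes, and the gap between the nearest follicles of the stages was 0.08. That gap depended on ROBO4, a dim gene read below, and without ROBO4 the levels of the stages overlap. The median stayed between 0.27 and 0.46 with each array left out.

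TEK, the angiopoietin receptor, read 8.46, 8.04, 8.21 and 8.21 in unruptured follicles, against 7.35, 7.90, 7.67 and 7.68 at 24 h. Its groups were apart and its difference was 0.58 ± 0.18 (adjusted p = 0.629). ROBO4, a receptor of stable endothelium, read 5.12, 4.23, 4.27 and 4.27, against 1.80, 4.12, 1.79 and 1.90, at the dim end of the arrays where the size of a difference is uncertain (2.07 ± 0.56, adjusted p = 0.532). TIE1, the partner of TEK, differed by 0.57 ± 0.27 with overlap, and the pan-endothelial genes PECAM1, CDH5 and ENG by 0.24, 0.34 and −0.01.

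Notch pathway genes had a median of 0.15, with 11 of 12 above 0, among them the vessel genes DLL4 (0.31 ± 0.23) and NOTCH4 (0.44 ± 0.23). A dimmer probe set of NOTCH4 gave −0.69 ± 0.62. Angiogenic ligands and receptors, a list that shares TEK with the endothelial markers, had a median of 0.16 with 13 of 18 above 0, and ANGPTL4, a secreted lipase inhibitor, had its lowest difference, −0.89 ± 0.31. Levels of both lists overlapped between the stages. Slit, ROBO, netrin and UNC5 genes had a median of −0.01 with 11 of 23 above 0, and semaphorins, plexins and neuropilins 0.00 with 13 of 27. None of these passed the test, and DLL4, NOTCH4 and ANGPTL4 were picked once their values were known. The part of RNA quality or of other cell types in these values was not tested.

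Lists of other cell types overlapped between the stages. Antral granulosa cell genes had a median of 0.11 with 10 of 15 above 0, and levels from −0.60 to 0.46 in unruptured against −0.39 to 0.24 in 24 h follicles. Their median ran from −0.05 to 0.38 with each array left out, and that of neutrophil markers from −0.14 to 0.34. Theca and stroma markers had a median of 0.11 with 8 of 10 above 0, smooth muscle and pericyte markers 0.14 with 5 of 8, neutrophil markers 0.15 with 5 of 8, lymphocyte markers 0.03 with 4 of 8, platelet markers 0.06 with 3 of 5 and surface epithelium markers 0.05 with 7 of 11. Of red blood cell genes 3 were measured, with HBB, the beta globin, at 5.46 in unruptured and 5.41 in 24 h follicles on average. Markers of a follicle's wall were among the bright genes of both stages. DCN, the stromal proteoglycan decorin, averaged 12.58 in unruptured and 12.49 in 24 h follicles, and TAGLN of contractile cells averaged 12.89 and 12.93.

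Interferon response genes had a median of 0.30, with 14 of 17 above 0 and 3 higher and 0 lower by the unadjusted p. IFIT3, an antiviral effector, read 9.20, 9.72, 9.58 and 10.02 in unruptured follicles, against 9.11, 9.03, 9.07 and 8.41 at 24 h, a difference of 0.72 ± 0.22 (adjusted p = 0.629) with groups just apart. ISG15, a ubiquitin-like modifier, differed by 0.82 ± 0.32, with its highest value of 6.92 in unruptured replicate 4. That follicle also had the highest level of the list, 0.54, against 0.08, −0.19 and 0.14 in the other unruptured follicles and −0.31 to −0.05 at 24 h. Macrophage and monocyte markers had a median of −0.24, with 2 of 12 above 0, and 24 h replicate 4 was highest in CD14 (9.21), AIF1 (8.20) and CSF1R (8.58). Without that follicle their median was −0.04, and with all probe sets of a gene averaged it was −0.12.

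**Figure D4:**
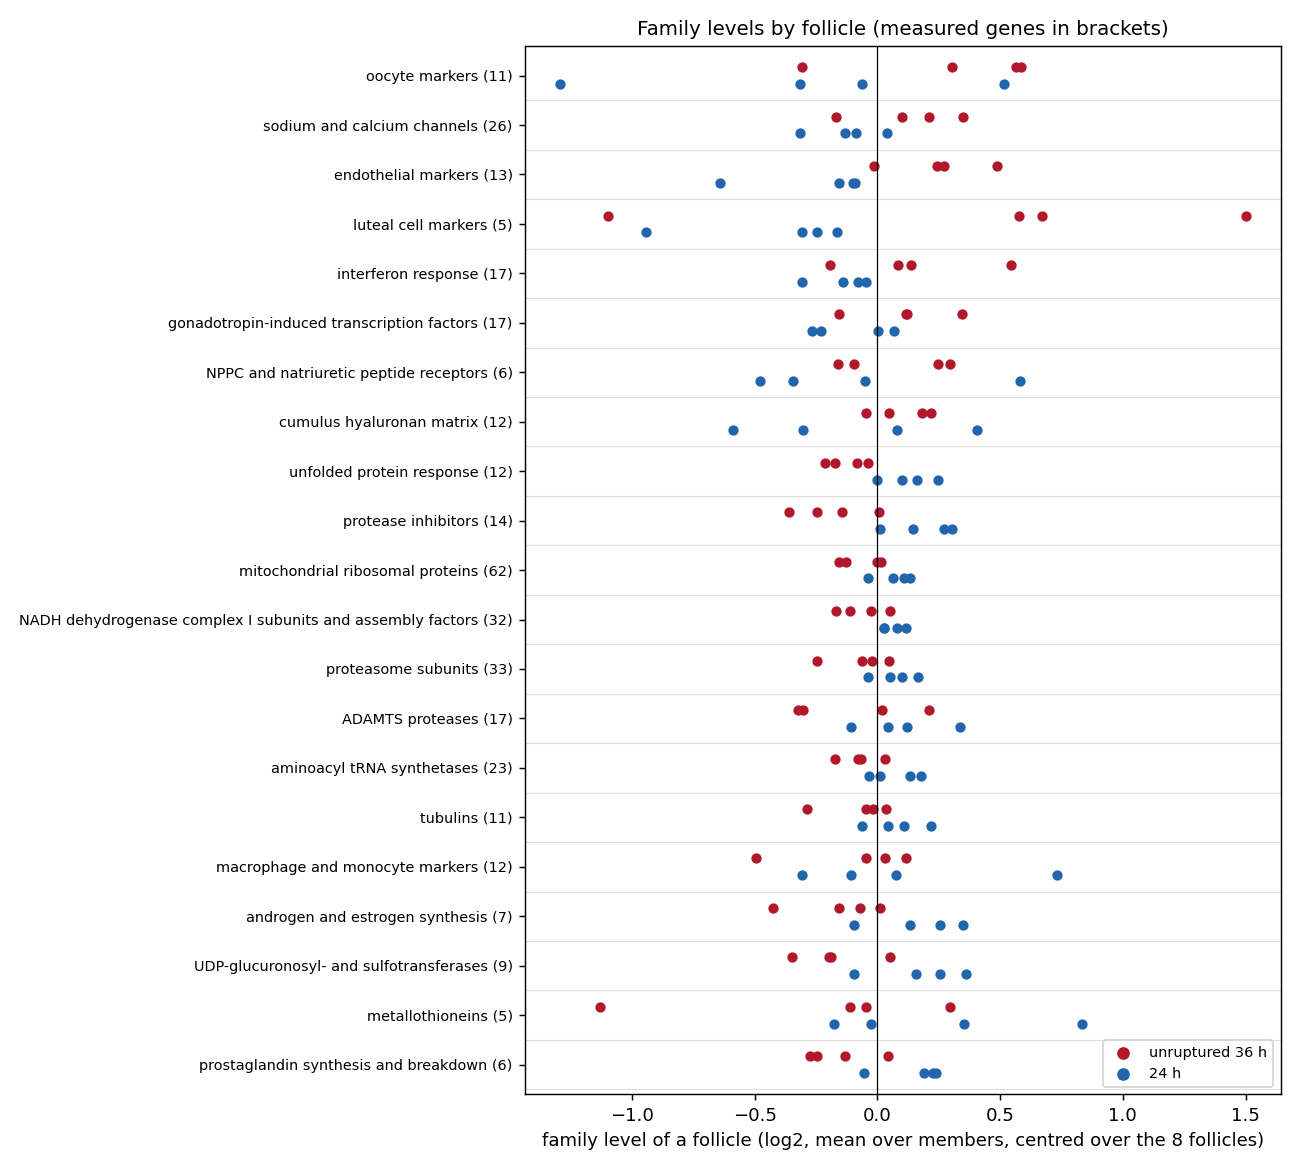
Level of 21 families (rows, measured genes in brackets) in each unruptured 36 h follicle (red, upper) and 24 h follicle (blue, lower), as the mean log2 value over members centred over the 8 follicles (x axis). The stages are apart only for endothelial markers, unfolded protein response genes and protease inhibitors among these rows. Luteal markers spread widely between unruptured follicles and oocyte markers between 24 h follicles.

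Luteal markers spread widely between unruptured follicles (SD of the level 1.09, against 0.36 at 24 h), while oocyte markers did so at 24 h (0.42 in unruptured and 0.76 in 24 h follicles). RLN2, the hormone relaxin of the primate corpus luteum, read 3.25, 7.30, 12.22 and 10.79 in unruptured follicles, against 2.93, 3.98, 3.82 and 2.88 at 24 h. Unruptured replicate 1 was as dim as the 24 h follicles and the other unruptured follicles were far above them. The mean difference of 4.99 ± 2.71 had an interval from −0.69 to 10.66 (adjusted p = 0.833). RLN2 spread as widely at other stages, before hCG as well. It averaged 6.44 ± 4.70 at 0 h (SD, n = 6), and 5.08 ± 5.00 at 12 h and 5.26 ± 3.57 in ruptured 36 h follicles (SD, n = 4 each). Other luteal markers did not follow RLN2 in size. IDH1, an isocitrate dehydrogenase, differed by 0.34 ± 0.17 and INHA, the inhibin subunit, by 0.32 ± 0.58, and HSD3B2 was lower. The median of the 5 measured luteal markers, 0.32, ran from −0.05 to 0.45 with each array left out.

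Oocyte markers had the highest median of all families, 0.67, with 10 of 11 above 0, yet 0 passed even the unadjusted p and only 1 interval lay within 2-fold. BMP15, a growth factor of the oocyte, read 4.56, 5.24, 4.61 and 5.40 in unruptured follicles, against 4.27, 5.02, 4.00 and 1.46 at 24 h, and MOS, a meiotic kinase, read 3.67, 4.44, 4.14 and 4.19 against 4.16, 4.05, 4.30 and 1.22. In both, 24 h replicate 4 was far below every other follicle. The list's level in that follicle was −1.29, against −0.31 to 0.59 in the other follicles of both stages. Without it the median was 0.27, without 24 h replicate 2 it was 0.94, and with 16 added before the logarithm it was 0.40. Whether the oocyte was in each sample is not stated. Sodium and calcium channels had a median of 0.38 (19 of 26 above 0), and 18 of the 26 were below the median brightness. Their median was 0.15 without unruptured replicate 2 and 0.14 with 16 added. SCN7A, a sodium-sensing channel, was their bright member apart between stages, at 8.58, 8.24, 8.20 and 7.57 in unruptured follicles against 7.47, 6.98, 7.20 and 6.69 at 24 h (1.06 ± 0.27, adjusted p = 0.507).

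Gonadotropin-induced transcription factors had a median of 0.22 with 13 of 17 above 0, led by JUND (0.49 ± 0.26), ATF3 (0.69 ± 0.54) and MYC (0.35 ± 0.19). Natriuretic peptide genes, whose peptide NPPC holds the oocyte in meiotic arrest, had a median of 0.20 over 6 genes, with NPR3, the clearance receptor, at 1.18 ± 0.78. Cumulus matrix genes had a median of 0.18 with 10 of 12 above 0, against the lower PTX3. AMBP, the precursor of the inter-alpha-trypsin inhibitor's light chain bikunin, differed by 0.73 ± 0.30, while its dimmer probe set gave −0.90 ± 0.54, and a dimmer probe set of ATF3 gave −1.14 ± 0.82. The median of the cumulus matrix genes was 0.06 with all probe sets averaged, 0.09 without 24 h replicate 1 and 0.41 without 24 h replicate 2. That of the transcription factors ran from 0.13 to 0.33, and that of the natriuretic peptide genes from 0.08 to 0.25, with each array left out. None of these genes passed the test.

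The lowest family medians belonged to small families with few measured genes. Prostaglandin synthesis and breakdown had a median of −0.36, with 6 of 18 genes measured and none of them above 0. CBR1, a carbonyl reductase that acts on prostaglandins, read 8.26, 8.17, 8.30 and 8.25 in unruptured follicles, against 8.45, 8.40, 8.93 and 8.86 at 24 h (−0.42 ± 0.16, adjusted p = 0.717), with groups apart. HPGD, which inactivates prostaglandins, differed by −0.36 ± 0.40. Metallothioneins, which bind zinc and copper, had a median of −0.35 with 0 of 5 above 0. MT2A read 11.76, 10.60, 12.30 and 11.94 in unruptured follicles, against 12.47, 12.42, 12.70 and 13.06 at 24 h (−1.01 ± 0.27, adjusted p = 0.532). Unruptured replicate 2 was lowest by over 1 log2 unit, and the median of the family ran from −0.58 to −0.11 with each array left out.

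Androgen and estrogen synthesis genes had a median of −0.28 with 1 of 7 above 0. CYP19A1, the aromatase that makes estrogen, read 5.56, 5.32, 7.05 and 5.96 in unruptured follicles, against 5.76, 6.90, 6.87 and 8.31 at 24 h (−0.99 ± 0.66, adjusted p = 0.859). Conjugating UDP-glucuronosyl- and sulfotransferases had a median of −0.33 with 2 of 9 above 0, 7 of the 9 being below the median brightness, as UGT1A1 was (−1.38 ± 0.48). Tubulins had a median of −0.20 (3 of 11 above 0), with TUBA4A at −0.53 ± 0.18, and ADAMTS proteases a median of −0.15 (5 of 17 above 0), with ADAMTS3, which trims procollagen, at −0.53 ± 0.23 and groups apart. With each array left out the median ran from −0.37 to −0.13 for androgen and estrogen synthesis, −0.49 to −0.09 for the conjugating enzymes, −0.23 to −0.05 for tubulins and −0.41 to −0.04 for ADAMTS proteases. The values nearest 0 came without unruptured replicate 3 for the first 3 families and without 24 h replicate 3 for ADAMTS proteases. No member of these lists passed the test.

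Beyond the families, the genes next in order by p were looked up after their values were seen, and none was called. TFPI2, a secreted inhibitor of plasmin and trypsin, stood closest. Its brightest probe set read 9.42, 9.47, 10.84 and 9.29 in unruptured follicles, against 10.99, 11.51, 11.58 and 12.11 at 24 h (−1.79 ± 0.37, adjusted p = 0.316), and a dimmer one gave −2.35 ± 0.37 (adjusted p = 0.0682) and was called under 4 of the alternatives. Its other probe sets gave −1.59 ± 0.38, −0.56 ± 0.92 and 0.35 ± 0.38, the last pair being dim. IL1RL1, the receptor of interleukin 33, read 6.23, 5.10, 4.65 and 5.33 in unruptured follicles, against 7.69, 7.17, 7.53 and 9.06 at 24 h (−2.53 ± 0.58, adjusted p = 0.38). Dimmer probe sets of IL1RL1 gave −2.21 ± 0.71, −1.85 ± 0.52 and, in the other direction, 1.15 ± 0.76. The brightest probe set of TFPI2 averaged 7.35 in 0 h, 11.95 in 12 h, 11.55 in 24 h, 9.76 in unruptured 36 h and 11.83 in ruptured 36 h follicles, so its unruptured mean also was the lowest after hCG. BANF1, a DNA-bridging protein of the nuclear envelope, and HPRT1, the purine salvage enzyme often used as a reference gene, were lower by 0.59 and 0.55 log2 units (differences of −0.59 ± 0.12 and −0.55 ± 0.13), with groups apart.

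On the higher side, among brighter genes with groups apart, ENPP2 stood first. This enzyme, autotaxin, makes lysophosphatidic acid, and it read 7.83, 7.80, 10.40 and 9.19 in unruptured follicles, against 7.31, 7.53, 6.92 and 7.08 at 24 h (1.59 ± 0.79, adjusted p = 0.808). The unruptured follicles differed more among themselves than the closest pair across stages. IGFBP1, which binds insulin-like growth factors, was bright and read 11.72, 11.96, 11.60 and 12.56, against 10.09, 11.42, 10.73 and 9.96 (1.41 ± 0.44, adjusted p = 0.656). MICAL2, an actin oxidase, differed by 1.05 ± 0.26, BHLHE40, a repressor tied to the circadian clock, by 0.91 ± 0.28, and RSPO1, which amplifies WNT signals, by 0.89 ± 0.28. A dimmer probe set of MICAL2 gave only 0.34 ± 0.27. On the lower side CYP11B1, the steroid 11-beta-hydroxylase known from the adrenal, read 8.17, 7.35, 8.94 and 7.96 in unruptured follicles, against 10.05, 9.38, 9.54 and 10.63 at 24 h (−1.79 ± 0.63, adjusted p = 0.676).

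**Figure D5:**
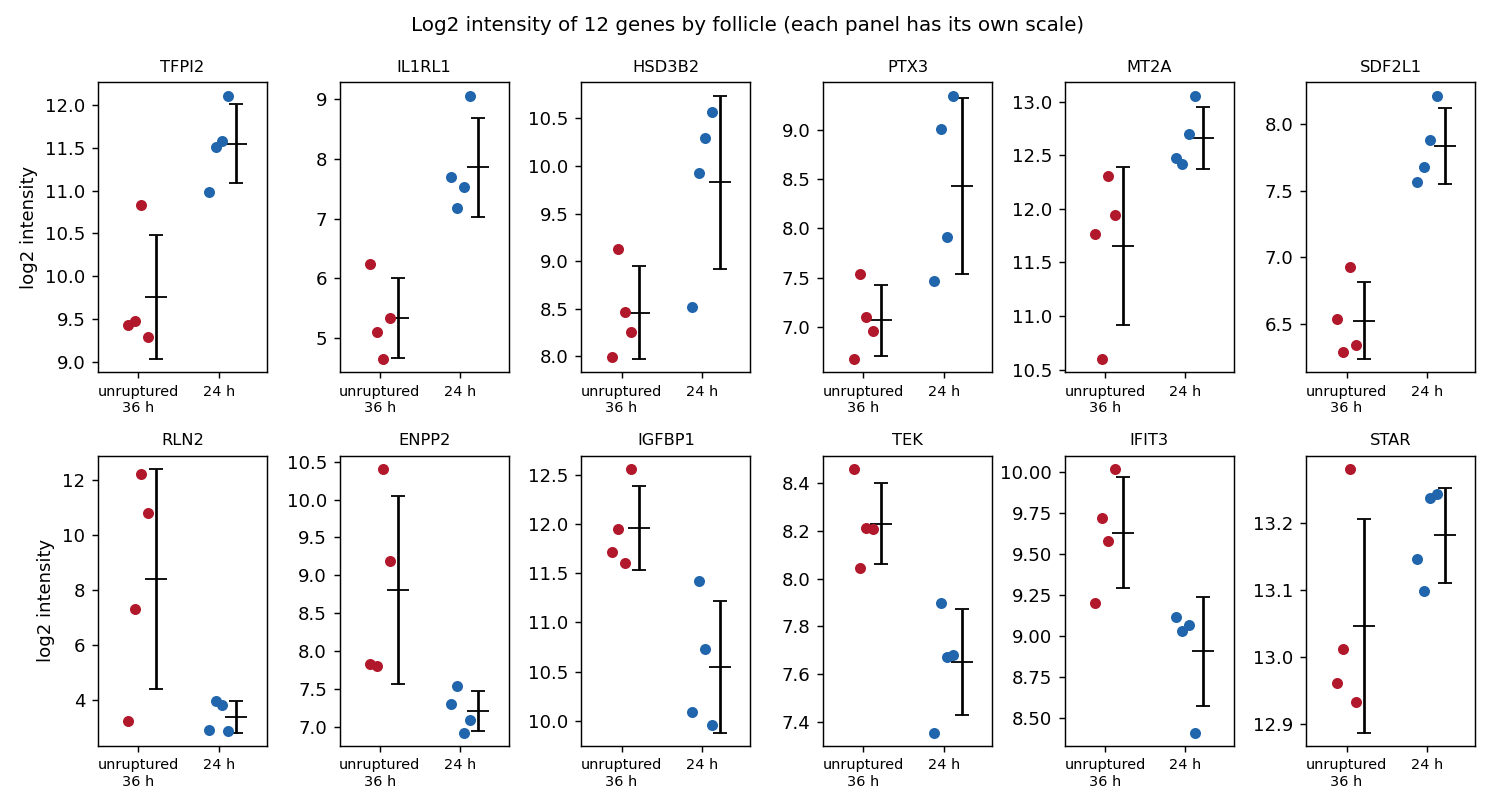
Log2 intensity (y axis, own scale in each panel) of 12 genes in 4 unruptured 36 h follicles (red, left) and 4 follicles of 24 h (blue, right), with mean and SD as black bars. TFPI2, IL1RL1, MT2A and SDF2L1 are lower and ENPP2, IGFBP1, TEK and IFIT3 higher without overlap, HSD3B2, PTX3, RLN2 and STAR overlap, and none of the 12 passed the test.

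Some genes varied far more between follicles of a stage than between stages, and they were chosen for that. OVGP1, the oviduct glycoprotein, read 11.91, 6.94, 5.84 and 5.86 in unruptured follicles, against 12.10, 7.61, 5.30 and 9.42 at 24 h. CRISP3 and SCGB1A1, secreted by epithelia, were likewise highest in replicate 1 of each stage, at 9.61 and 8.38 in the unruptured and 10.34 and 10.33 in the 24 h follicle. The surface epithelium list, with KRT18, KRT19 and WT1 as its brightest genes, had its highest levels in the same follicles, 0.41 in the unruptured and 0.60 in the 24 h one, against −0.37 to −0.09 in the other 6. Its part in these genes was not tested, and the labels do not say whether same-numbered replicates of different stages share more than a number. FABP4, the fatty acid carrier of fat cells, read 10.48 in unruptured replicate 1 and 4.34 to 5.95 in the other unruptured follicles, against 4.41 to 6.88 at 24 h. HP, the haemoglobin binding protein, read 10.41 in unruptured replicate 3 and 4.81 to 4.98 in the rest of its stage. MMP9, the gelatinase of neutrophils, read 5.11, 6.18, 5.60 and 6.17 in unruptured follicles, against 7.49, 2.52, 3.45 and 7.42 at 24 h. For such genes the mean of 4 follicles says little of a stage.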

How the data were processed

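Values were the authors' deposited intensities, 1 per probe set and array, made with RMA (version not given) per the submitters' processing notes. They were linear (0.0361 to 15137, array medians 26.1 to 26.7), so log2 was taken. The 99 control probe sets were left out. Gene symbols came from the platform annotation: a single symbol was found for 24956 of 52766 tested probe sets, several for 361 and none for 27449, and 24616 gene IDs matched RefSeq. A gene is given by its brightest probe set unless said otherwise. No batch, scan date or detection call was given. Groups and replicate numbers came from the titles.

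Group means of all 22 arrays, in 5 groups, were fitted with limma 3.58.1 in R 4.3.3 (lmFit, eBayes), with two-sided tests. P-values were adjusted by Benjamini-Hochberg over every tested probe set and called at adjusted p under 0.05. The fit was checked on simulated data. Families are described by counts, medians and levels, without a test.

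Members, lists and families were chosen with earlier results of these data known. Named were called genes, a panel of ovulatory genes, and up to 3 members leading each of the 8 highest and 8 lowest families. All other named genes were picked with their values in view. Alternatives changed the arrays in the fit, the offset before log2 (16), the brightness filter, the normalization, weights, prior, RNA index and replicates. The number of arrays limits the precision.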

Additional observations from a re-analysis of the deposited data

Results flagged for a closer look

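In 160 sets of 4 follicles (genes named by rule and described families, in either stage), 12 held a value far from the other 3 by Dixon's test at the 95% level, where chance gives about 1 in 20. Among unruptured 36 h follicles, replicate 1 was high in ROBO4 (5.12, others up to 4.27), replicate 2 in ITIH5 (8.43, others up to 7.06), replicate 3 in MT3 (10.13, others up to 8.59) and replicate 4 in ISG15 (6.92, others up to 5.69). Among 24 h follicles, replicate 1 was low in the endothelial level (−0.64, others from −0.16). Replicate 2 of 24 h was high in HSD11B1 (11.39) and ROBO4 (4.12, others up to 1.90) and low in the prostaglandin level (−0.05, others from 0.19). Replicate 4 of 24 h was high in MT1E (12.63) and CSF1R (8.58) and low in MOS (1.22, others from 4.05) and IFIT3 (8.41, others from 9.03). The 12 values are given without a cause.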

How the results depend on the processing

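The count of called probe sets between unruptured 36 h and 24 h follicles, 2 as reported, was 0 when only the 8 arrays entered the fit (3158 at an unadjusted p under 0.05 by limma), 0 with the RNA index as a covariate (2895 unadjusted), 4 with 16 added before the logarithm and 4 without the dimmer probe sets. It ran from 0 to 5 with each array left out, and was 0 without 24 h replicate 3 (3132 unadjusted) or 4 (2823 unadjusted). Quantile normalization, array weights and an intensity-dependent prior gave 2, 2 and 3. The labels do not say whether replicate numbers pair follicles across stages. Deviations of same-numbered arrays correlated at 0.17, 0.09, 0.04 and −0.12, and 2 of 4 correlated best with their own number. With so few arrays these values cannot settle whether there is a pairing. The fit of the 8 arrays with the replicate number as a block called 0 (3104 unadjusted), and the same block called 0 between 24 h and 12 h (7725 unadjusted). The counts of the other steps, 3628 between 24 h and 12 h and 5181 between ruptured and unruptured follicles, were 189 and 1318 with only the groups compared in the fit, where fewer arrays estimate the spread. They ran from 2199 to 3385 and from 3590 to 4599 with each array left out. The percentage of probe sets whose interval lay within 2-fold, 48.2%, was 85.1% without the dimmer probe sets and 95.5% with 16 added, which shrinks differences of dim probe sets by construction, and 44.6% to 45.9% with each array left out. For the other named genes, 8 of 1677 values under the alternatives passed the test, 13 moved by 1 SD or more and 21 took the other sign. Of 1865 family medians 33 moved by 1 SD or more, and 68 of 156 families kept the sign of their median throughout. The alternatives for the other steps, and the interval percentage for the 8 arrays or with arrays left out, were chosen after seeing the data. With 4 follicles a stage and no detection calls, differences of dim genes are the least certain.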
